A study of Saccharomyces cerevisiae with 8 samples.

Results

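The branched-chain amino acid genes of budding yeast (Saccharomyces cerevisiae) described here are ILV1, ILV2, ILV3, ILV5, ILV6, LEU1, LEU4, LEU9, BAT1 and BAT2. They were chosen by name, as the probe sets annotated to these genes of isoleucine, valine and leucine synthesis and transamination. All 10 were found, each with 1 probe set, among 5449 genes measured. Transcript levels came from 8 Affymetrix Yeast Genome arrays, with 2 arrays that the labels call biological replicates in each of 4 groups. The tested strains were deleted for DOT1, which encodes the methyltransferase of a core lysine of histone H3, for SWI4, the DNA-binding subunit of the cell cycle factor SBF, or for ARD1, the catalytic subunit of the N-terminal acetyltransferase NatA, and the fourth group was wild type (wt). The rich medium YPD was used for every culture, at 30 C, and cells were collected at an optical density of 0.7. The labels give neither the strain background nor the mating type nor the deletion marker, and no culture was grown without branched-chain amino acids.

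Isoleucine, valine and leucine share much of their synthesis. The threonine deaminase Ilv1 opens the isoleucine branch, and acetolactate synthase (catalytic subunit Ilv2, regulatory subunit Ilv6), the reductoisomerase Ilv5 and the iron-sulfur dehydratase Ilv3 serve both isoleucine and valine inside mitochondria. Leucine branches off through the isopropylmalate synthases Leu4 and Leu9, which are encoded by duplicate genes, the iron-sulfur isomerase Leu1 and the dehydrogenase Leu2. The transaminases Bat1 in mitochondria and Bat2 in the cytosol carry out the last step of synthesis and, in reverse, the start of breakdown to fusel alcohols. Many of these genes are known targets of Gcn4, the activator of general amino acid control, and of Leu3, a regulator that responds to the intermediate isopropylmalate.

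The values are deposited probe set intensities, and every level below is their log2. A change is a mutant mean minus a wt mean on that scale, given with limma's standard error (SE), n = 2 arrays per group. "Rose" and "fell" are used where limma's p, adjusted over all 5449 genes by Benjamini-Hochberg, was under 0.05. With 2 arrays against 2, an exact permutation test cannot give a two-sided p below 0.333, so calls rest on the spread that limma shares across groups and genes. The 3 comparisons with wt use the same 2 wt arrays, and their results are therefore not independent of each other. Levels of different genes are not compared as amounts of transcript, because probe sets differ in brightness. In bulk cultures, fewer cells with a transcript and less transcript per cell cannot be told apart.

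The deleted genes were low in their own mutants, with changes of −3.31 ± 0.15 for DOT1, −0.91 ± 0.14 for SWI4 and −5.23 ± 0.18 for ARD1. The SWI4 probe set was dim both in swi4 (4.21 and 4.22) and in wt (5.14 and 5.11), and its call was lost without swi4 replicate 1 or 2. Of all genes, 69.2% were higher on wt replicate 2 than on wt replicate 1, with a median difference of 0.14. In the deposited values wt replicate 2 had a median intensity of 712.6, against 623.3 to 643.8 on the other arrays. Of all genes, 37.6%, 37.4% and 41.3% had a positive change against wt in dot1, swi4 and ard1. Among the branched-chain genes 8 of 10 were higher on wt replicate 2, by 0.36 for ILV2 and 0.27 for LEU1, while LEU9 and ILV6 were lower by 0.04 and 0.07.

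The branched-chain gene that moved furthest was BAT2, the cytosolic transaminase. Its level was higher than in wt in every mutant array, and its transcript was 2.83-fold higher in ard1. LEU9, the minor isopropylmalate synthase gene, was lower on every mutant array than in wt, and fell in swi4 and ard1. The mitochondrial transaminase gene BAT1 was also lower on every mutant array, and fell in ard1. ILV3 and ILV5 were lower on every mutant array as well, without a call. The 7 genes other than BAT2, LEU9 and BAT1 did not pass in any comparison as fitted. ILV2 in ard1 passed under some other settings, as did BAT2 and LEU9 in dot1. Over the 8 arrays BAT2 spanned 1.64 log2 units, and the other 9 genes spanned 0.25 to 0.73.

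**Figure D1:**
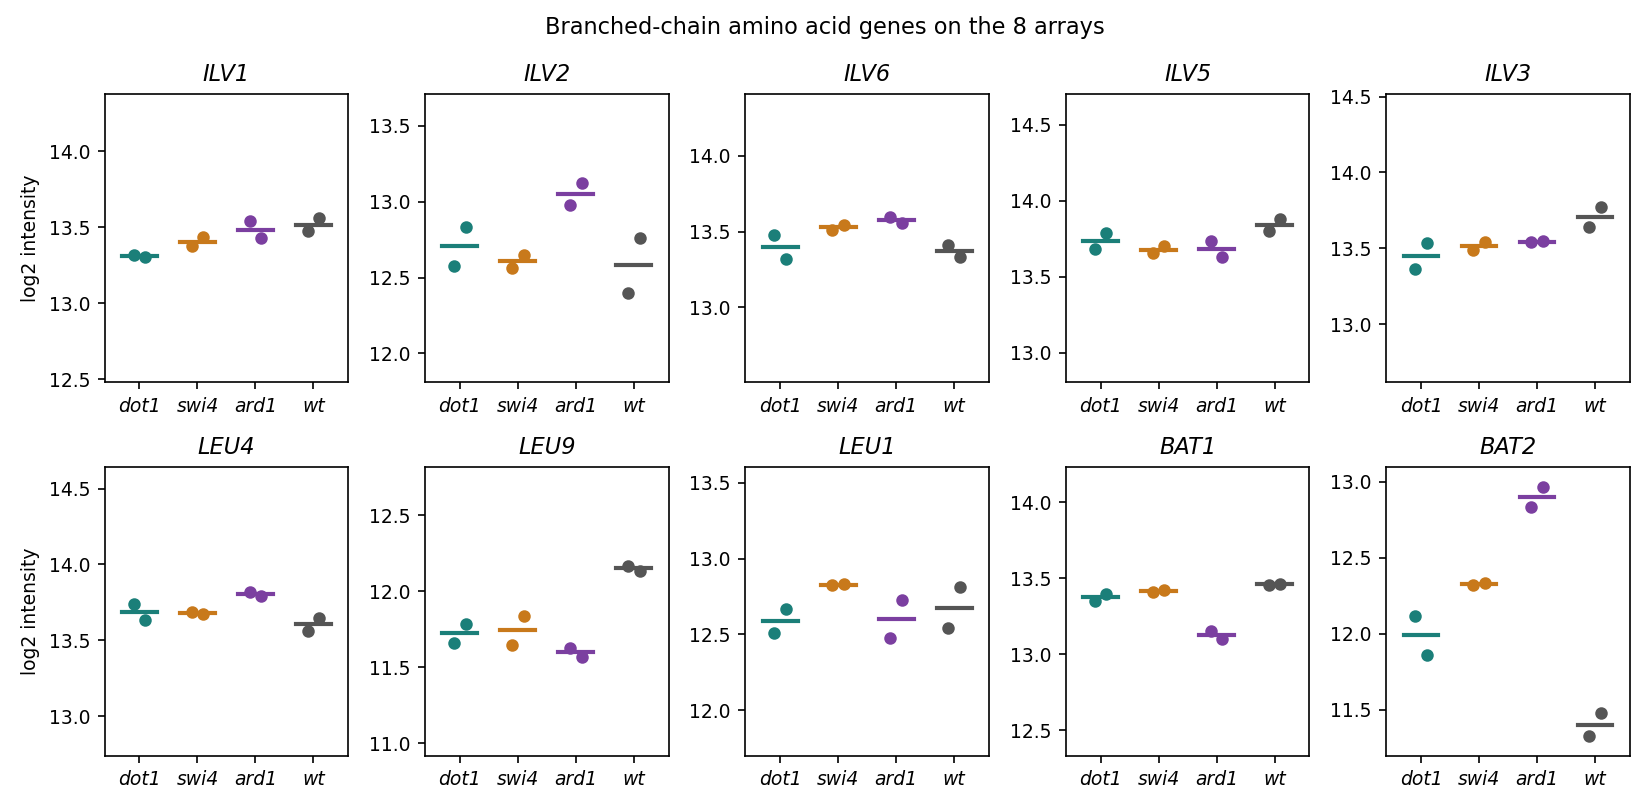
Log2 intensity of each branched-chain gene on each array (points) and the group mean (bars), by genotype; every panel spans the same number of log2 units, but its position differs by gene. BAT2 lies between 11.86 and 12.97 on the 6 mutant arrays, against 11.33 and 11.47 on the wt arrays, and LEU9 lies between 11.57 and 11.84 on the mutant arrays, against 12.17 and 12.13 on the wt arrays.

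In ard1, 1 of the 10 genes rose and 2 fell, where 18.5% of all genes were called in either direction, 6.26% up and 12.2% down. In swi4, 1 rose and 1 fell, against 12.2% of all genes (5.16% up and 7.01% down). In dot1, limma called 0 of 10, against 2.46% of all genes (1.12% up and 1.34% down). There 3 genes (ILV3, LEU9 and BAT2) had an unadjusted limma p under 0.05, a count not comparable with that 2.46%. The share of all genes at an unadjusted p under 0.05 was not counted, here or for the gene lists below. It was above the share called in each mutant, since genes near an unadjusted limma p of 0.05 had larger adjusted p. These were 0.0514 and 0.226 for ILV1 in dot1, and 0.0489 and 0.163 for the permease gene AGP1 in swi4. For the carrier gene OAC1 in ard1 they were 0.0504 and 0.155. No excess of genes is read from the counts at an unadjusted p. The shares of all genes called up and down also apply to the counts of the gene lists below. The 10 genes had a median change of −0.09 in dot1, beside −0.07 for all genes, of −0.01 in swi4, beside −0.10, and of −0.05 in ard1, beside −0.07. For the 9 genes other than BAT2, the 95% intervals of all 27 changes against wt lay between −0.80 and 0.83, short of a 2-fold difference in either direction. By mean log2 the members were bright among all genes, from percentile 82.7 for LEU9 and 85.9 for BAT2 to 96.7 for ILV5. Whether the arrays understate changes at such brightness was not tested.

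**Figure D2:**
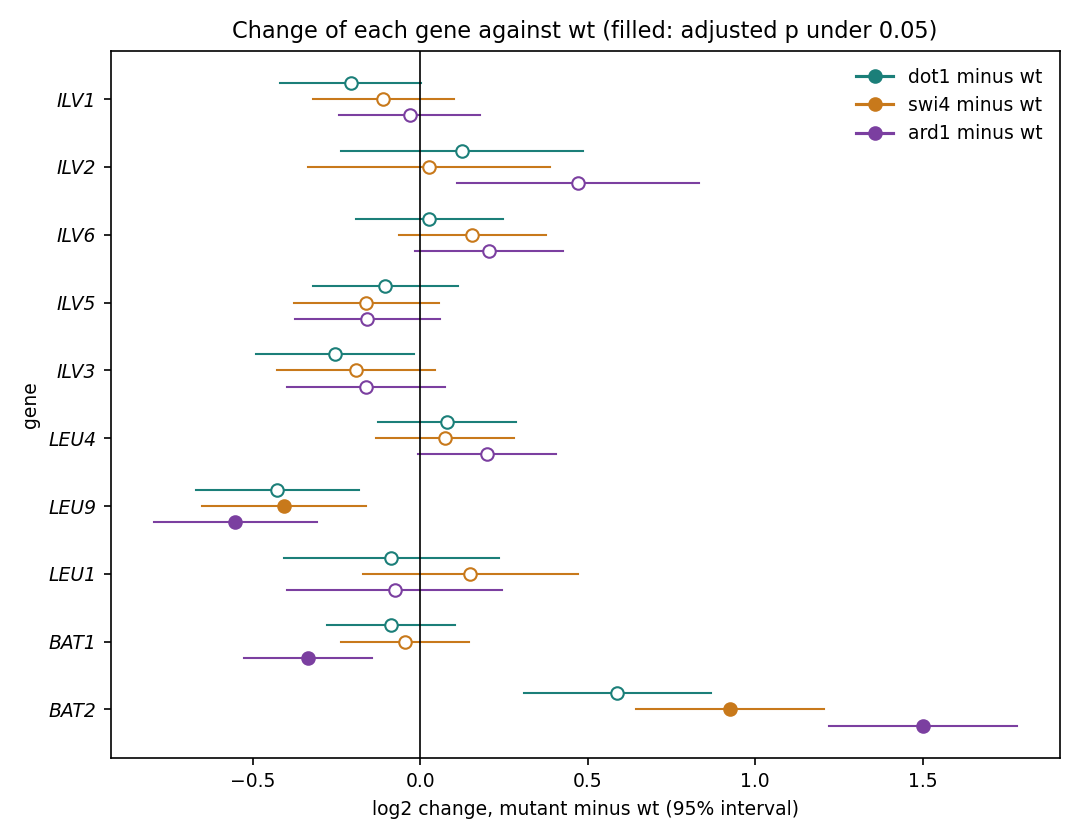
Log2 change of each branched-chain gene in dot1, swi4 and ard1 against wt (points) with 95% intervals of the limma estimate (lines); filled points passed an adjusted p under 0.05. BAT2 lies at 0.59, 0.92 and 1.50, LEU9 at −0.43, −0.41 and −0.55, and BAT1 passed only in ard1, at −0.34.

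BAT2 (YJR148W) had log2 levels of 12.12 and 11.86 in dot1 cells, 12.32 and 12.33 in swi4 cells and 12.84 and 12.97 in ard1 cells, against 11.33 and 11.47 in wt. As intensities these were 4441 and 3723 in dot1 cells, 5114 and 5152 in swi4 cells and 7310 and 8006 in ard1 cells, against 2569 and 2846 in wt. The group means were 11.99 ± 0.18 in dot1, 12.33 ± 0.0075 in swi4 and 12.90 ± 0.09 in ard1, against 11.40 ± 0.10 in wt (SD, n = 2 each). No mutant array overlapped the wt arrays, and the 2 arrays of each mutant kept clear of the arrays of the other mutants. Both mutant arrays lay above both wt arrays for 15.8% of all genes in dot1, 22.5% in swi4 and 21.5% in ard1. BAT2 rose 2.83-fold in ard1 (1.50 ± 0.12, adjusted p = 0.00153) and 1.90-fold in swi4 (0.92 ± 0.12, adjusted p = 0.00742). In dot1 its change of 0.59 ± 0.12 did not pass (adjusted p = 0.0565), with a 95% interval from 0.31 to 0.87. That change passed under 5 of the 7 other settings that left out no single array. It did not pass with only the 2 groups fitted (adjusted p = 0.332), and without single arrays it was 0.46 to 0.72. The ard1 rise was called whichever of the 4 arrays was left out, at 1.43 to 1.57 with adjusted p from 0.00544 to 0.0227. The swi4 rise was not called without swi4 replicate 1 (adjusted p = 0.0797) or without swi4 replicate 2 (adjusted p = 0.0725), at nearly the same size (0.93 and 0.92). The summed intensity of 4 alpha-cell marker genes was also lower in ard1 (33870 and 31810) than in wt (49350 and 52010), and its part in the BAT2 result was not tested.

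The mutants were also set directly against each other, which leaves the wt arrays out of the difference. The order of BAT2 levels ran from ard1 through swi4 and dot1 to wt. BAT2 was higher in ard1 than in dot1 by 0.91 ± 0.12 (adjusted p = 0.00747), where 14.1% of all genes were called, 5.67% up and 8.44% down. It was lower in swi4 than in ard1 by a change of −0.58 ± 0.12 (adjusted p = 0.0233), where 15.3% of all genes were called, 9.07% up and 6.20% down. Swi4 and dot1, neighbours in that order, differed by 0.34 ± 0.12 without passing (adjusted p = 0.307), with an interval from 0.06 to 0.62, in a comparison that called 1.01% of all genes. The difference between ard1 and dot1 was not called without ard1 replicate 1 (adjusted p = 0.0553) or ard1 replicate 2 (adjusted p = 0.0628). The difference between swi4 and ard1 was lost when leaving out any of the 4 arrays, with adjusted p from 0.0949 to 0.153. BAT2 was the single branched-chain gene called between mutants, and no member was called between swi4 and dot1, where limma gave 0 of 10 and 1 gene, BAT2, had an unadjusted p under 0.05.

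BAT1 (YHR208W) moved the other way in ard1. Its levels were 13.35 and 13.40 in dot1 cells, 13.41 and 13.42 in swi4 cells and 13.15 and 13.10 in ard1 cells, against 13.46 and 13.47 in wt. The ard1 arrays stood below all 6 others, and the wt arrays were nearly identical to each other. All mutant arrays lay below the wt arrays, as did both arrays of 26.8% of all genes in dot1, 37.1% in swi4 and 35.6% in ard1. BAT1 fell 1.26-fold in ard1 (−0.34 ± 0.08, adjusted p = 0.0326), and its changes were −0.09 ± 0.08 in dot1 and −0.05 ± 0.08 in swi4 (adjusted p = 0.585 and 0.731). The fall was not called when any of the 4 arrays was left out (adjusted p from 0.0562 to 0.193), nor with array medians centred (−0.26, adjusted p = 0.12) or quantile normalization (adjusted p = 0.0538). Between mutants BAT1 did not pass either, at −0.25 ± 0.08 in ard1 against dot1 (adjusted p = 0.0857) and 0.29 ± 0.08 in swi4 against ard1 (adjusted p = 0.0548).

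Of the isopropylmalate synthase genes, LEU9 was called in ard1 and swi4, and LEU4 in no comparison. Leu4 is the major enzyme, and Leu9 the minor form from the duplicate gene. LEU9 (YOR108W) had levels of 11.66 and 11.79 in dot1 cells, 11.65 and 11.84 in swi4 cells and 11.63 and 11.57 in ard1 cells, against 12.17 and 12.13 in wt. Every mutant array lay below the wt arrays by more than the spread within any group. LEU9 fell 1.47-fold in ard1 (−0.55 ± 0.10, adjusted p = 0.0149) and 1.33-fold in swi4 (−0.41 ± 0.10, adjusted p = 0.0491), and its change in dot1, −0.43 ± 0.10, did not pass (adjusted p = 0.0777). The call in ard1 was lost without ard1 replicate 1 or 2 (adjusted p = 0.077 and 0.108). The call in swi4 was lost when any of the 4 arrays was left out (adjusted p from 0.0641 to 0.301), with array medians centred (−0.31, adjusted p = 0.142) and with quantile normalization (−0.34, adjusted p = 0.0718). Between mutants LEU9 was not called, with changes of −0.13 ± 0.10 in ard1 against dot1, 0.15 ± 0.10 in swi4 against ard1 and 0.02 ± 0.10 in swi4 against dot1. Probe sequences were not used here, so cross-hybridisation between the duplicate genes was not tested.

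LEU4 (YNL104C) had levels of 13.74 and 13.64 in dot1 cells, 13.69 and 13.67 in swi4 cells and 13.82 and 13.79 in ard1 cells, against 13.56 and 13.65 in wt. The ard1 arrays were the highest of the 8, and the dot1 arrays overlapped with wt. Its changes of 0.08 ± 0.09, 0.07 ± 0.09 and 0.20 ± 0.09 in dot1, swi4 and ard1 did not pass (adjusted p = 0.648, 0.599 and 0.167), so LEU4 gave positive values where LEU9 gave negative ones.

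Differences between genes of a pair within an array are free of a shift that is equal for all genes, and were set relative to their wt mean. They are not free of the difference between the wt arrays, which varied by gene (0.36 for ILV2 and −0.07 for ILV6, replicate 2 minus replicate 1). For BAT2 minus BAT1 they were 0.83 and 0.52 in dot1 cells, 0.97 and 0.97 in swi4 cells and 1.74 and 1.93 in ard1 cells, against −0.07 and 0.07 in wt. For LEU4 minus LEU9 they were 0.62 and 0.39 in dot1 cells, 0.59 and 0.37 in swi4 cells and 0.73 and 0.77 in ard1 cells, against −0.06 and 0.06 in wt. In both pairs all mutant arrays lay above both wt arrays. Whether the genes of a pair changed unequally was not tested, and how often other gene pairs separate in this way was not counted. All mutants were set against the same wt arrays, and in dot1 no gene of these pairs passed. The separation also does not show which gene moved. ILV6 minus ILV2, the subunits of 1 enzyme, gave 0.11 and −0.31 in dot1 cells, 0.16 and 0.10 in swi4 cells and −0.17 and −0.36 in ard1 cells, against 0.22 and −0.22 in wt. These values overlapped with wt in each mutant.

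**Figure D3:**
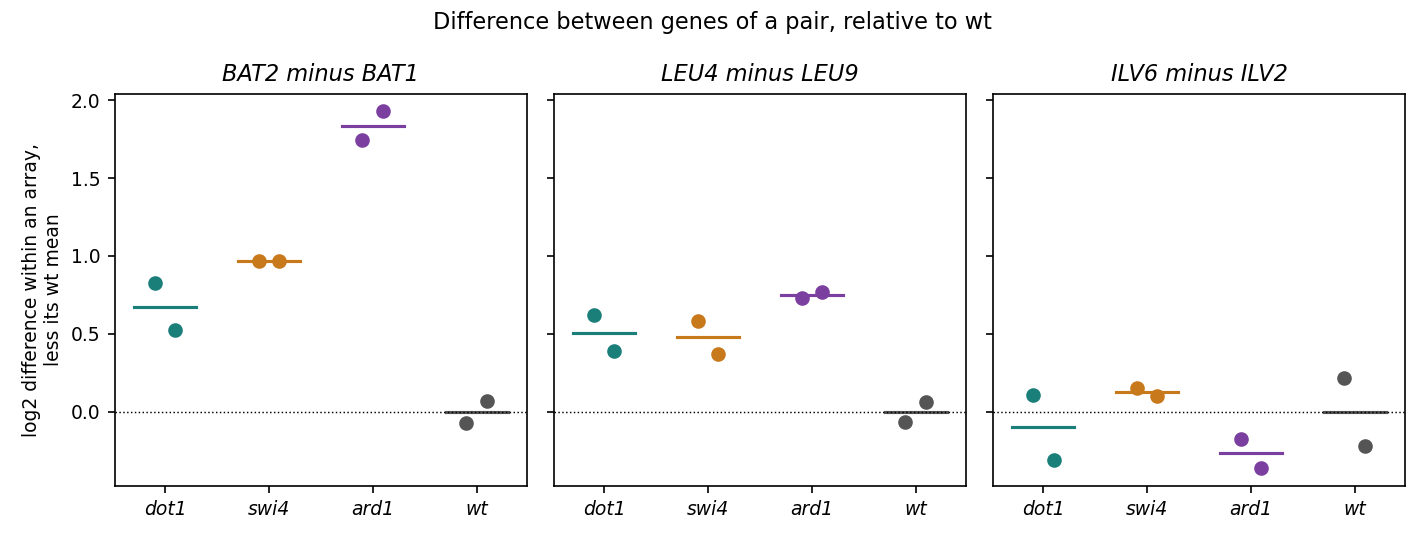
Difference in log2 intensity between the genes of a pair within each array, less its mean over the wt arrays (points), with group means (bars), for the transaminase pair, the isopropylmalate synthase pair and the acetolactate synthase subunits. The ard1 means are 1.84, 0.75 and −0.26, and the wt arrays lie within 0.22 of 0 in all panels.

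Among the genes shared by isoleucine and valine synthesis, none passed in any comparison as fitted, with ILV2 in ard1 the nearest. ILV2 (YMR108W), the catalytic subunit gene of acetolactate synthase, had levels of 12.58 and 12.83 in dot1 cells, 12.57 and 12.65 in swi4 cells and 12.98 and 13.12 in ard1 cells, against 12.40 and 12.76 in wt. The ard1 arrays were the highest, and the wt arrays lay further apart (0.36) than those of any mutant. The change in ard1 was 0.47 ± 0.15 (adjusted p = 0.0785), with an interval from 0.11 to 0.83. Without wt replicate 2 the ILV2 change in ard1 was 0.65 and passed (adjusted p = 0.0333), and without wt replicate 1 it was 0.29 (adjusted p = 0.2). It also passed with array medians centred (0.54, adjusted p = 0.02) and with an intensity trend in the fit (adjusted p = 0.0329), so the side of the threshold on which ILV2 fell depended on the setting. ILV6 (YCL009C), the regulatory subunit gene, had levels of 13.48 and 13.32 in dot1 cells, 13.51 and 13.54 in swi4 cells and 13.60 and 13.56 in ard1 cells, against 13.41 and 13.34 in wt. Swi4 and ard1 lay above wt, by 0.16 ± 0.09 and 0.21 ± 0.09 (adjusted p = 0.301 and 0.18).

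ILV5 (YLR355C), the reductoisomerase gene, had levels of 13.68 and 13.79 in dot1 cells, 13.66 and 13.70 in swi4 cells and 13.73 and 13.63 in ard1 cells, against 13.80 and 13.88 in wt. ILV3 (YJR016C), the dehydratase gene, had levels of 13.37 and 13.54 in dot1 cells, 13.49 and 13.54 in swi4 cells and 13.54 and 13.55 in ard1 cells, against 13.64 and 13.77 in wt. For both genes the mutant arrays lay below the wt arrays, as did both arrays of 26.8% of all genes in dot1, 37.1% in swi4 and 35.6% in ard1. The changes were −0.10, −0.16 and −0.16 for ILV5 (SE 0.09) and −0.26, −0.19 and −0.16 for ILV3 (SE 0.10) in dot1, swi4 and ard1, with adjusted p between 0.194 and 0.563.

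ILV1 (YER086W), which encodes threonine deaminase, had levels of 13.32 and 13.30 in dot1 cells, 13.38 and 13.44 in swi4 cells and 13.54 and 13.43 in ard1 cells, against 13.47 and 13.56 in wt. It was lowest in dot1 (−0.21 ± 0.09, adjusted p = 0.226), and its interval in ard1 ran from −0.24 to 0.18. LEU1 (YGL009C), the isomerase gene of the leucine branch, had levels of 12.51 and 12.67 in dot1 cells, 12.82 and 12.83 in swi4 cells and 12.47 and 12.73 in ard1 cells, against 12.54 and 12.81 in wt. The dot1 and ard1 arrays overlapped with wt, the swi4 arrays lay just above it, and its changes of −0.09 ± 0.13, 0.15 ± 0.13 and −0.08 ± 0.13 had adjusted p of 0.77, 0.489 and 0.746.

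Counted by separation alone, 1 branched-chain gene had both dot1 arrays above both wt arrays and 5 had them below, where 15.8% and 26.8% of all genes did so. In swi4, 4 genes lay above and 5 below, against 22.5% and 37.1% of all genes, and in ard1 4 lay above and 4 below, against 21.5% and 35.6%.

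Of 6 partner genes of the pathway, 0 rose and 1 fell in swi4, and limma called 0 in dot1 (2 at an unadjusted p under 0.05) and 0 in ard1 (0 at an unadjusted p under 0.05). LEU2, the dehydrogenase gene that follows LEU1, was dim on all arrays, at 5.76 and 5.38 in dot1 cells, 5.52 and 5.29 in swi4 cells and 5.57 and 5.41 in ard1 cells, against 5.68 and 5.47 in wt. The lowest gene mean on the array was 4.02, and the labels do not say whether these strains carry an intact LEU2. LEU3, the regulator gene, had levels of 7.64 and 7.82 in dot1 cells, 7.53 and 7.52 in swi4 cells and 7.98 and 7.81 in ard1 cells, against 7.97 and 8.28 in wt. It fell in swi4 (−0.60 ± 0.13, adjusted p = 0.0361), a call that was lost without wt replicate 2, swi4 replicate 1 or swi4 replicate 2. OAC1, a mitochondrial carrier gene that exports isopropylmalate, gave changes of −0.09 ± 0.17, 0.07 ± 0.17 and 0.40 ± 0.17 in dot1, swi4 and ard1, and the largest of these did not pass (adjusted p = 0.155). The largest change of the list in dot1 was that of ECM31, a pantothenate synthesis gene that draws on the valine precursor, at −0.66 ± 0.18 (adjusted p = 0.104), followed by LEU3 at −0.40 ± 0.13 (adjusted p = 0.151), and in ard1 LEU3 gave −0.23 ± 0.13 (adjusted p = 0.297).

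The threonine branch makes the substrate of Ilv1. Its list of 7 measured genes also held CHA1 and GLY1, whose enzymes use threonine. No synthesis gene of the list was called in any mutant against wt. In ard1 1 rose, CHA1, a serine and threonine deaminase gene of amino acid breakdown (0.81 ± 0.19, adjusted p = 0.0312, lost without ard1 replicate 1 or 2), and the list median was 0.16. In dot1 and swi4, limma called 0 of 7, with 0 at an unadjusted p under 0.05 in each, and medians of −0.02 and −0.02. The largest changes there were 0.22 ± 0.19 for CHA1 and −0.21 ± 0.10 for the threonine aldolase gene GLY1 in dot1, and −0.13 ± 0.10 for GLY1 and −0.04 ± 0.09 for the threonine synthase gene THR4 in swi4.

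GCN4 mRNA, whose product is known to be controlled mainly at translation, was close to wt, at 0.04 ± 0.08 in dot1, −0.13 ± 0.08 in swi4 and −0.07 ± 0.08 in ard1. Of the 4 genes of the general amino acid control pathway, 1 fell in ard1, GCN1, an activator of the Gcn2 kinase (−0.37 ± 0.10, adjusted p = 0.042), a call lost when any 1 of the 4 arrays was left out or array medians were centred. Limma called 0 of 4 in dot1 and 0 in swi4 (2 and 1 at an unadjusted p under 0.05), with the largest changes at −0.43 ± 0.19 and −0.42 ± 0.19 for GCN2 and at −0.35 ± 0.10 and −0.36 ± 0.10 for GCN1.

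Enzyme genes of other amino acids that are known Gcn4 targets formed the largest list and the one with the most calls. Of 16 measured, 4 rose in dot1 cells, 8 in swi4 cells and 10 in ard1 cells, and 0 fell in any mutant. Of all genes, 1.12%, 5.16% and 6.26% rose in dot1, swi4 and ard1. The median changes of this list were 0.28, 0.48 and 0.60. The largest rises in ard1 were those of the arginine gene ARG1 (1.96 ± 0.14), the histidine gene HIS4 (1.51 ± 0.10), the arginine gene ARG4 (1.23 ± 0.10) and the histidine gene HIS3 (1.15 ± 0.10), which were called whichever of the 4 arrays was left out. In swi4, ARG1 (1.83 ± 0.14) and HIS4 (1.19 ± 0.10) kept their call in the same way, while HIS3 (0.86 ± 0.10) and the dim ARG3 (0.85 ± 0.11) lost it without swi4 replicate 1 or 2. In dot1, HIS4 (1.23 ± 0.10), ARG1 (0.88 ± 0.14), ARG4 (0.81 ± 0.10) and HIS5 (0.53 ± 0.10) rose, each lost without dot1 replicate 2, and all but HIS4 also without dot1 replicate 1 or wt replicate 2.

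**Figure D4:**
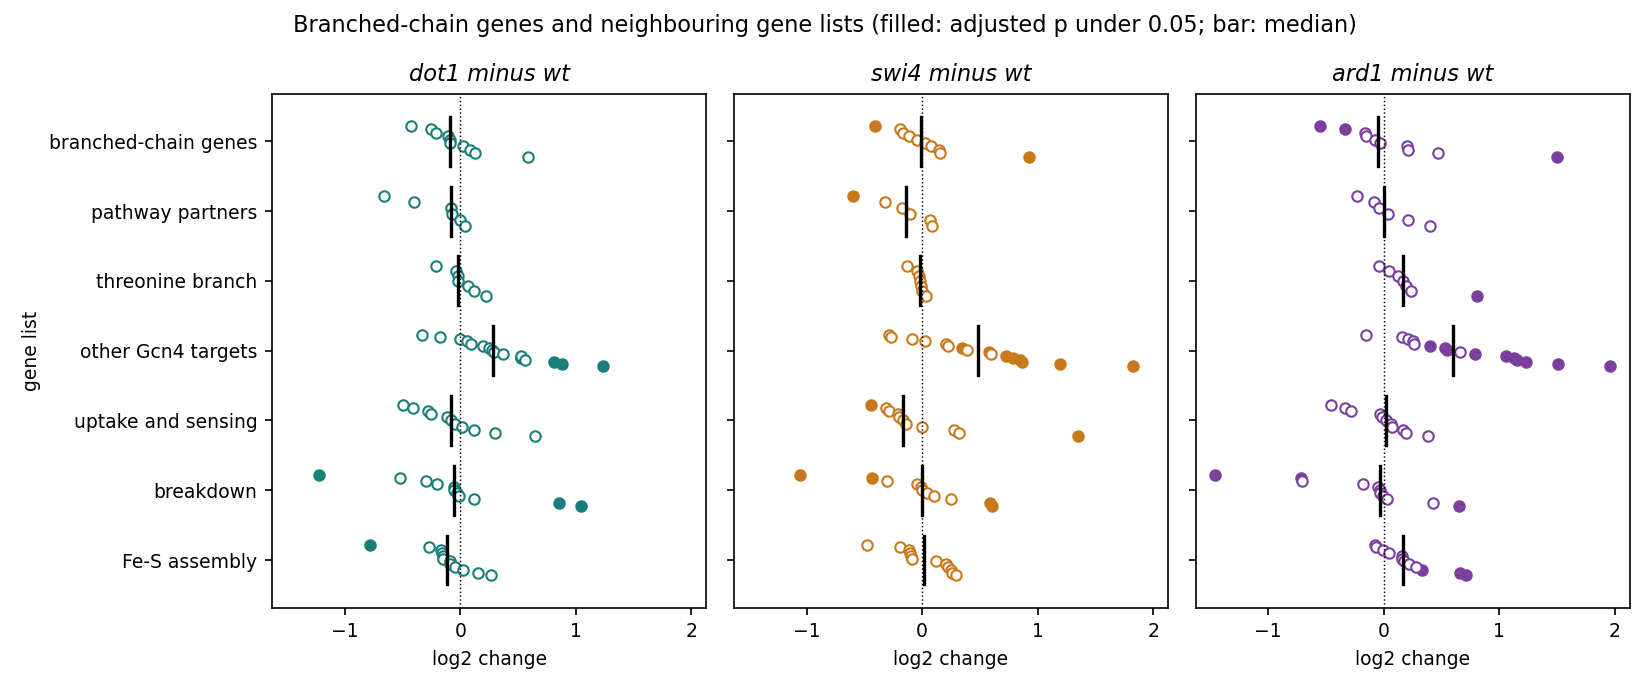
Log2 change against wt of the branched-chain genes and of 6 neighbouring gene lists in dot1, swi4 and ard1; each point is a gene, filled where its adjusted p was under 0.05, and the bar is the list median. The branched-chain medians are −0.09, −0.01 and −0.05, and those of the other Gcn4 targets 0.28, 0.48 and 0.60.

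Of 11 genes for uptake and amino acid sensing, limma called 0 in dot1 and 0 in ard1 (5 and 3 at an unadjusted p under 0.05), and 1 rose and 1 fell in swi4. GAP1, the general amino acid permease gene, had levels of 9.59 and 9.60 in dot1 cells, 10.36 and 10.24 in swi4 cells and 9.28 and 8.96 in ard1 cells, against 9.14 and 8.77 in wt. It rose in swi4 (1.35 ± 0.16, adjusted p = 0.00623), a call lost without swi4 replicate 1 or 2, and gave 0.64 ± 0.16 in dot1 (adjusted p = 0.0799). The glutamine permease gene GNP1 fell in swi4 (−0.44 ± 0.10, adjusted p = 0.04), lost without swi4 replicate 1, swi4 replicate 2 or wt replicate 2 and after median centring, and gave −0.49 ± 0.10 in dot1 (adjusted p = 0.0583). In ard1 the largest changes were −0.45 ± 0.22 for the amino acid sensor gene SSY1 and 0.38 ± 0.11 for the permease gene AGP1 (adjusted p = 0.219 and 0.063).

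In the breakdown of amino acids to fusel alcohols and their esters, which Bat2 can feed, 11 genes were measured. In dot1 2 rose and 1 fell, in swi4 2 rose and 2 fell, and in ard1 1 rose and 2 fell, with medians of −0.05, 0.00 and −0.03. ARO10, a decarboxylase gene of this route, had levels of 10.09 and 10.03 in dot1 cells, 9.64 and 9.60 in swi4 cells and 9.72 and 9.62 in ard1 cells, against 9.02 and 9.01 in wt. It rose by 1.04 ± 0.08, 0.61 ± 0.08 and 0.65 ± 0.08, with adjusted p of 0.00585, 0.00941 and 0.00507. The transaminase gene ARO9 rose in dot1 (0.86 ± 0.12) and swi4 (0.59 ± 0.12).

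ATF2, an alcohol acetyltransferase gene, had levels of 10.57 and 10.19 in dot1 cells, 10.43 and 10.66 in swi4 cells and 10.21 and 10.09 in ard1 cells, against 11.59 and 11.62 in wt. It fell by 1.22 ± 0.15, 1.06 ± 0.15 and 1.46 ± 0.15 in dot1, swi4 and ard1, and its relative ATF1 fell in swi4 and ard1 (−0.43 ± 0.10 and −0.72 ± 0.10). In ard1, ARO10 and ATF2 were called whichever array was left out. The other calls of this list were lost without 1 or more single arrays, in each case without replicate 2 of the mutant, and that of ATF1 in swi4 also after median centring.

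The genes with the array profile nearest to that of BAT2, by root mean square distance of their centred log2 values over the 8 arrays, were GCV1 (0.10), MCH4 (0.12), HIS3 (0.14), GON7 (0.15) and GCV3 (0.16), where the median gene lay at 0.60. GCV1 and GCV3 encode subunits of the glycine cleavage system, HIS3 a histidine synthesis enzyme, GON7 a subunit of the KEOPS complex and MCH4 a transporter-like protein. In ard1 these genes rose by 1.33 ± 0.11, 1.30 ± 0.13, 1.15 ± 0.10, 1.19 ± 0.16 and 1.07 ± 0.13 in that order. The call of GON7 was lost without ard1 replicate 2. Because these genes were picked for likeness to BAT2 on the same arrays, their rise in ard1 was built into the choice. It is no separate result. The mean profile of the 10 branched-chain genes was nearly flat, and the genes nearest to it were IPP1, HOM6, THR1, DUG1 and PRO3, at distances of 0.03 to 0.04 beside a median of 0.20. HOM6 and THR1 belong to the threonine branch.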

How the data were processed

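RNA was extracted with hot acid phenol, amplified and biotin-labelled, and each sample was hybridised to 1 array, per the labels' protocols. The authors deposited 1 intensity per probe set and array, linear by its range (15.2 to 35540) and made with RMA, which removes background, quantile-normalizes arrays and summarises probes, per the submitters' processing notes. The sources used here give neither its version nor the step to linear values. Because background was removed, signal over background cannot be read, and the number of arrays limits the precision.

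Of 5814 probe sets, those with 1 gene symbol (5498) were named from the platform's annotation, updated through an R64 gene table, and the brightest probe set stood for each of the 47 genes with more than 1, which left 5449 genes. Control (98) and unnamed (218) probe sets were not used here. Log2 values were fitted with limma 3.58.1 (lmFit, eBayes; R 4.3.3) in 1 model of 4 group means, with 4 residual and 2.73 prior degrees of freedom, tested two-sided. The fit was tested on simulated data with known changes.

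The members, gene lists (partners, threonine branch, general amino acid control, other Gcn4 targets, uptake and sensing, breakdown, iron-sulfur assembly, a-cell and alpha-cell markers) and tests were chosen with earlier results of these data known. Named were all members, the deleted genes, LEU2, LEU3, GCN4 and OAC1, called list genes (at most the 4 with the largest change per list, or the 2 largest where none passed) and the 5 nearest profiles. The planned promoter motif search was not run, and sequences are not used here. Alternatives were median centring, quantile normalization, a dim-gene filter, fits of 2 groups, an intensity trend, a replicate block, every probe set tested and leaving out each array.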

Additional observations from a re-analysis of the deposited data

How the results depend on the processing

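Of 7 changes of branched-chain genes that passed in the 6 comparisons, 1 passed whichever array was left out, the rise of BAT2 in ard1 against wt, and 0 turned direction under any alternative. The 4 called differences of BAT2 passed under all 7 alternatives other than those that left out a single array. In dot1 against wt, calls over all genes went from 134 to 233 with array medians centred and to 215 with quantile normalization. They were 216 without the dimmest 25% of genes, 348 with an intensity trend and 793 with the replicate block. BAT2 (adjusted p from 0.0172 to 0.0415) and LEU9 were the members added there. The number of members called, 0, became 1 with centring, quantile normalization or the dim-gene filter, and 2 with the trend or the block. It stayed 0 to 0 when 1 array was left out, while the calls over all genes, 134, ran from 0 with only these 2 groups fitted to 807 without wt replicate 1. In swi4 against wt, 2 became 1 with medians centred, with quantile normalization and with only the 2 groups in the fit, and 0 to 1 without single arrays. In ard1 against wt, 3 became 1 with only the 2 groups fitted and 6 with an intensity trend, which added ILV2, ILV6 and LEU4, and ran from 1 to 3 without single arrays. In ard1 against dot1, 1 became 2 with an intensity trend and 2 with the replicate block, and 0 to 1 without single arrays. In swi4 against ard1, 1 became 2 with medians centred or without the dimmest 25% of genes, and 3 with only the 2 groups fitted, with an intensity trend or with the replicate block, and 0 to 0 without single arrays. In swi4 against dot1 the member count was 0 under all alternatives. Calls over all genes shifted too. With the replicate block they went from 663 to 1397 in swi4 and from 1006 to 1517 in ard1 against wt. Between mutants the block moved them from 769 to 1582 in ard1 against dot1 and from 832 to 1547 in swi4 against ard1. With only the 2 groups fitted they were 176 in swi4 and 405 in ard1 against wt, and 2227 in swi4 against ard1. An intensity trend gave 1070 in ard1 against wt, 864 in ard1 against dot1 and 974 in swi4 against ard1. The labels do not say that replicate numbers mark a shared day or culture; deviations of same-numbered arrays correlated across genes at 0.35 to 0.75, and the replicate block moved the member count in ard1 against wt to 4, with ILV2 added (0.47, adjusted p = 0.0135), and left it at 2 in swi4 against wt. Between mutants the block added ILV2 in ard1 against dot1 (adjusted p = 0.0392), and ILV2 and BAT1 in swi4 against ard1 (adjusted p = 0.0173 and 0.0366). For ILV2 in ard1 against wt the adjusted p ran from 0.0135 to 0.338 over all alternatives. The causes of these shifts were not tested. Of 57 calls against wt of deleted genes, list genes and nearest-profile genes, 16 passed whichever array was left out (1 of 9 in dot1, 2 of 21 in swi4, 13 of 27 in ard1), and 0 turned direction.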

Other observations

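Ilv3 and Leu1 carry iron-sulfur clusters, and 12 genes for assembling such clusters were measured on the same arrays. In ard1 3 of them rose and 0 fell, with a median change of 0.17: the scaffold gene ISU1 (0.71 ± 0.14, adjusted p = 0.0182), the cytosolic assembly gene CFD1 (0.66 ± 0.13, adjusted p = 0.0167) and the glutaredoxin gene GRX5 (0.33 ± 0.09, adjusted p = 0.0401). ISU1 and CFD1 lost the call without ard1 replicate 1 or 2, and GRX5 when any 1 of the 4 arrays was left out. In dot1 1 fell, NAR1, a cytosolic assembly gene (−0.78 ± 0.13, adjusted p = 0.0362), which was lost without wt replicate 2, dot1 replicate 1 or dot1 replicate 2. In swi4 limma called 0 of 12 (3 at an unadjusted p under 0.05), with the largest changes at −0.48 ± 0.13 for NAR1 and 0.29 ± 0.12 for the frataxin gene YFH1. Neither ILV3 nor LEU1 was called in any of these comparisons.

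The mating type is not labelled. The summed intensity of 4 alpha-cell markers was 47880 and 51040 in dot1 cells, 46020 and 46840 in swi4 cells and 33870 and 31810 in ard1 cells, against 49350 and 52010 in wt. The summed intensity of 5 a-cell markers was 613 and 534 in dot1 cells, 596 and 563 in swi4 cells and 477 and 415 in ard1 cells, against 648 and 532 in wt. All 4 alpha-cell markers fell in ard1, the group where BAT2 was highest, by changes of −1.15 ± 0.10 for the receptor gene STE3, −0.70 ± 0.12 for the agglutinin gene SAG1 and for MF(ALPHA)1 −0.55 ± 0.09 and for its fellow pheromone gene MF(ALPHA)2 −0.43 ± 0.09. Of these, STE3 was called whichever array was left out, the others were lost without ard1 replicate 1 or 2, and MF(ALPHA)2 also without wt replicate 2 or with array medians centred. STE3 also fell in swi4 (−0.40 ± 0.10, adjusted p = 0.0475, lost without wt replicate 2, swi4 replicate 1 or swi4 replicate 2 and with array medians centred). Limma called 0 of 4 in dot1 (0 at an unadjusted p under 0.05). Of 5 a-cell markers limma called 0 in each mutant against wt (0, 1 and 2 at an unadjusted p under 0.05 in dot1, swi4 and ard1). The part of these markers in the BAT2 result was not tested.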
